A study of Homo sapiens with 6 samples.

Results

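The genes described here are 10 genes of heme breakdown and iron handling, chosen by name: HMOX1, HMOX2, BLVRA, BLVRB, FTL, FTH1, TFRC, SLC40A1, FECH and SLC48A1. All 10 were found among the 60709 genes with values, by Ensembl identifier with the version removed. The cells were SH-SY5Y, an established human neuroblastoma line, and messenger RNA was sequenced. The 3 libraries described are control replicates 1, 2 and 3, from wells given 10 uL of DMSO in 2 mL of medium with 10% serum and lysed 5 h later. The 3 samples of cells given a fumarate joined to an NRF2 peptide carry the numbers 13, 14 and 15 in the labels, which match no column of the count table, and were not analysed here. Columns 4, 5 and 6 were taken as the controls because the labels give these numbers to the control samples. If the columns were numbered independently of the labels, the libraries could be others of the study, so the name control rests on the numbers alone. Nothing in the labels says whether the 3 wells were separate cultures, and in bulk RNA fewer cells of a type and less RNA per cell cannot be told apart.

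Heme is broken down by heme oxygenase, which opens the ring and releases iron, carbon monoxide and biliverdin. Biliverdin reductase then turns biliverdin into bilirubin, and the released iron is stored in ferritin, used in mitochondria or exported. HMOX1, the inducible heme oxygenase, and both ferritin subunits are textbook targets of NRF2, the transcription factor after which the peptide of the study is named, while BACH1, a heme-binding repressor, holds HMOX1 down. Iron itself adjusts the yield of several of these messages after transcription, through iron regulatory proteins that bind a short hairpin in the RNA.

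The libraries held 8887854 to 11397407 counts, and a count of 0 allows up to 0.262 to 0.341 CPM (counts per 1000000 of the scaled library total). A gene is called detected here where each of the 3 libraries held 10 or more of its counts, which 13920 genes did. Of 9 markers of noradrenergic neuroblastoma, 8 were detected, with a summed level of 3054 to 3447 CPM, while TH, the enzyme of the first step of catecholamine synthesis, had 0 counts in each. Of 7 markers of the mesenchymal state or fibroblasts, 5 were detected (summed level 86.7 to 96.8 CPM), and PRRX1 was at 0. Markers of cells that specialise in heme and iron were low. The summed level was 0.227 to 0.349 CPM for 5 erythroid genes, with HBB and HBG1 at 0 counts, and 2.09 to 2.70 CPM for 6 macrophage genes, with CD163 and AIF1 at 0. CD14 was the single detected gene of the macrophage list, with 25, 21 and 14 counts, and held most of that sum (1.92 ± 0.375 CPM). It was 0.455 to 1.68 CPM for 4 hepatocyte genes, none of which was at 0 in all libraries. Replicate 3 departed from the others in GC content and in the mitochondrial share of its counts (6.25%, against 3.83% and 4.11%).

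The iron-responsive element is the hairpin that iron regulatory proteins bind. In the message of a ferritin subunit it lies before the coding region, where binding blocks translation, and in the message of the transferrin receptor it lies after the coding region, where binding slows decay. A search of the GENCODE 29 transcripts for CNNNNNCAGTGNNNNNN, with all 5 bases before the loop able to pair with the 5 after it (G-U pairs allowed), on the transcript strand only, found a match in 4 of the 10 genes: FTL, FTH1, TFRC and SLC40A1. Over all genes of the annotation, 594 of 58721 (1.01%) had a match. Of 48 other heme and iron genes described below, 3 had a match: ALAS2, SLC39A14 and TF. The place of these 3 matches within their transcripts was not examined, and binding was not tested for any match. An element whose stem lacks any of the 5 pairs would be missed, so a gene without a match may still carry an element. The 7 matches in FTL, FTH1, TFRC and SLC40A1 are shown because they set these messages apart from the rest of the 10. In HMOX1, HMOX2, BLVRA, BLVRB, FECH and SLC48A1 no match was found. Each match is given as 30 bases 5′ to 3′ on the strand of the gene, with the loop in capitals.
FTL: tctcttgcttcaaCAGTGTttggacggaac
FTH1: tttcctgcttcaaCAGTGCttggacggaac
SLC40A1: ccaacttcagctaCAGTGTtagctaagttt
TFRC element 1: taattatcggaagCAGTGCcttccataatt
TFRC element 2: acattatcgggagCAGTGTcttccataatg
TFRC element 3: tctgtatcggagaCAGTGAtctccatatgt
TFRC element 4: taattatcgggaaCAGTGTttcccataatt

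On GRCh38, the build named in the submitters' processing notes, the FTL element lies at chr19:48965334-48965363 (plus strand). The FTH1 element lies at chr11:61967574-61967603 and the SLC40A1 element at chr2:189580661-189580690, both on the minus strand. All 3 are in 5′ untranslated exons of the longest transcript. The TFRC elements lie on the minus strand of chromosome 3, in the 3′ untranslated region, from chr3:196050979-196051008 for element 1 to chr3:196050463-196050492 for element 4. The FTL and FTH1 elements were identical at 27 of 30 positions, whereas the SLC40A1 element matched the FTL element at 14 and the FTH1 element at 13. TFRC elements 1 and 4 were identical at 25 positions, as were elements 1 and 2. Not every annotated isoform carries its element: 10 of 12 FTH1 transcripts, 3 of 7 SLC40A1 transcripts and 3 of 15 TFRC transcripts do, as does the single FTL transcript. Counts per gene do not separate these isoforms, and a count of messages does not report how well they were translated.

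As counted, ferritin light chain had the highest level of the 10 messages and the inducible heme oxygenase the lowest. The place of the light chain above the heavy chain, FTH1, depends on how reads shared between genes were counted, which is not given in the sources used here. The ferritin genes FTL and FTH1 together took 66.1 ± 1.44% (SD, n = 3) of the counts of the 10 genes. They made up 0.0937 ± 0.00433% of all counts of a library. Each of the 10 genes was detected, so none was lost to a filter on low values. Their median level was 54.5 ± 3.39 CPM, beside 31.3 ± 0.519 CPM for all 13920 detected genes.

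**Figure D1:**
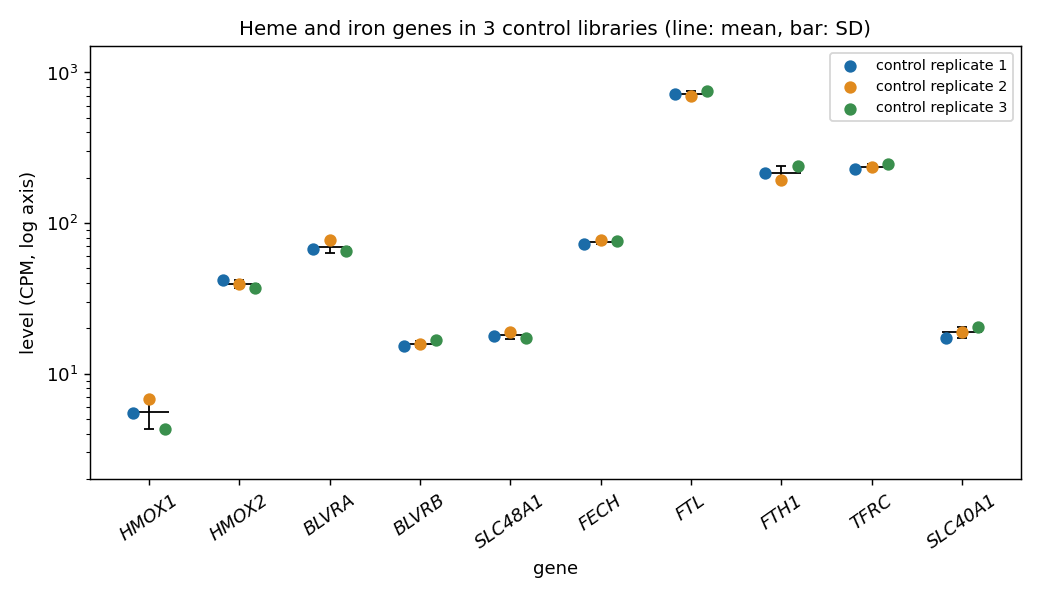
Level of each of the 10 genes (CPM, log axis) in control replicates 1, 2 and 3, with the mean as a line and the SD as a bar. FTL lies near 721 CPM and HMOX1 near 5.54 CPM, and the 3 points of each gene lie close together except for HMOX1.

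A heme transporter of endosomal membranes is encoded by SLC48A1 (also called HRG1). SLC48A1 (ENSG00000211584.14, chr12:47753916-47782753) had 191, 218 and 151 counts, which is 17.8, 19.02 and 17.2 CPM in replicates 1, 2 and 3. Its mean of 17.99 ± 0.942 CPM (SD, n = 3) varied by 5.23% between libraries, less than the counting error of a single library, 6.77 to 8.14%.

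HMOX1 (ENSG00000100292.18, chr22:35380361-35394214) had 59, 78 and 38 counts, or 5.49, 6.81 and 4.32 CPM. Replicate 2 was highest and replicate 3 lowest, 1.57-fold apart. HMOX2 (ENSG00000103415.12, chr16:4474690-4510347), the constitutive heme oxygenase, had 450, 449 and 328 counts, or 41.9, 39.2 and 37.3 CPM. The ranges of HMOX1 and HMOX2 lay far apart in every library. As a share of the counts of both genes, HMOX1 was 11.6% in replicate 1 (exact 95% binomial interval 8.94 to 14.7%), 14.8% in replicate 2 (11.9 to 18.1%) and 10.4% in replicate 3 (7.45 to 14.0%), intervals that cover counting error only. The 3 intervals overlap, and the difference in this share between the libraries was not tested. Divided by the length of the longest transcript, HMOX2 exceeded HMOX1 6.47-fold, 4.89-fold and 7.32-fold in replicates 1, 2 and 3, a mean of 6.23 ± 1.24. With the median transcript length or the summed exons in place of the longest transcript, the mean ratio was 4.17 or 4.65. A 228-base stretch of HMOX2 exons (6.01% of its exonic bases) is shared with exons of NMRAL1 on the opposite strand, and whether the counting used strand is not given in the sources used here.

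Biliverdin reductase A makes bilirubin IXα, the main product in adults, and biliverdin reductase B also acts as a flavin reductase. BLVRA (ENSG00000106605.11, chr7:43758680-43807342) was measured at 67.2, 77.2 and 64.9 CPM, from 722, 885 and 571 counts. Replicate 2 stood above the other replicates. BLVRB (ENSG00000090013.11, chr19:40447765-40465840) was measured at 15.2, 15.6 and 16.6 CPM, from 163, 179 and 146 counts. These values lay within 1.09-fold of each other and far under those of BLVRA. Per length, BLVRA exceeded BLVRB by 5.31 ± 0.619-fold (SD, n = 3), and by 4.69-fold to 5.93-fold in single libraries.

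In both steps 1 isoenzyme thus held most of the counts: HMOX2 over HMOX1, and BLVRA over BLVRB. POR, the reductase that supplies heme oxygenase with electrons, was measured at 112 ± 10.6 CPM, with 121, 114 and 100 CPM. It has 61.3% GC, and its variation index (the scatter between libraries over that of counting alone) went from 9.52 to 0.397 with the GC trend of each library removed. Per length of the longest transcript, the only length used for POR, it exceeded HMOX2 by 2.40 ± 0.107-fold. UGT1A1, which conjugates bilirubin for excretion, had 0 counts in each library. The UGT1A genes share exons, and how such reads were counted is not stated, so this value is uncertain.

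FECH (ENSG00000066926.12, chr18:57548283-57586772), or ferrochelatase, runs in the other direction and inserts iron into protoporphyrin to make heme. It had the lowest spread of the 10 genes as measured, with 72.5, 76.6 and 75.9 CPM and a coefficient of variation of 2.89%. Its counts were 779, 878 and 667, and the counting error of a single library, 3.37 to 3.87%, was above this spread. With the GC trend removed, TFRC (1.68%) and HMOX2 (2.02%) varied less than FECH (2.08%). Of 7 other enzymes of heme synthesis, 6 were detected. ALAS1, the housekeeping form of the first enzyme, was measured at 56.9 ± 1.80 CPM (23.4 CPM per kb), and ALAS2, its erythroid form, had 2, 1 and 1 counts. Per length, UROD was highest of the list (38.3 CPM per kb) and CPOX lowest among the detected ones (12.2 CPM per kb). FECH, with 19.5 ± 0.563 CPM per kb, lay between these. UROS (17.2), ALAD (14.5) and PPOX (14.3 CPM per kb) also lay in that range.

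FTL (ENSG00000087086.15, chr19:48965301-48966878), the ferritin light chain, which helps build the iron core, had 7746, 7953 and 6579 counts, or 721, 694 and 748 CPM. FTH1 (ENSG00000167996.16, chr11:61959718-61967660), the heavy chain, which oxidises iron for storage, had 2296, 2213 and 2116 counts, or 214, 193 and 241 CPM. Both were highest in replicate 3 and lowest in replicate 2. FTH1 varied more, by 11.05% against 3.76% for FTL. The heavy chain made up 22.9%, 21.8% and 24.3% of ferritin counts in replicates 1, 2 and 3. The exact 95% binomial intervals of replicates 2 and 3 (21.0 to 22.6% and 23.4 to 25.3%) do not overlap. They cover counting error only, and the difference in this share between the libraries was not tested. Per length, FTL exceeded FTH1 by 4.70 ± 0.340-fold.

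The level of FTH1 is uncertain, and with it this ratio. Of the windows of 50 bases in the longest FTH1 transcript, 78.7% occur word for word, on either strand, in an annotated transcript of another gene, among them 14 FTH1 pseudogenes. At 100 bases the share was 65.8%. For FTL the shares were 18.3% and 3.34%. BEST1, on the opposite strand, shares 1267 of the 2030 exonic bases of FTH1 (62.4%), and without BEST1 the FTH1 shares were 40.4% and 20.2%. How reads that match several genes were counted is not given in the sources used here. The rows of pseudogenes held few reads: the 25 FTH1 pseudogenes together had 50, 68 and 61 counts, which is 2.18 to 3.07% of FTH1, and 14 of them had 0. FTH1P8 alone had 43, 54 and 51 counts. The 16 FTL pseudogenes had 15, 24 and 14 counts. Adding them to their parent genes gave a ratio of 4.59, and BEST1 itself had 92, 93 and 45 counts. Reads that the counting left out cannot be recovered from this table, and their part in the ratio was not tested. The ratio also moved with the length used, to 3.01 with the median transcript length and 7.77 with summed exons, and FTL was above FTH1 with each.

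TFRC (ENSG00000072274.13, chr3:196027183-196082189), the transferrin receptor that brings iron into the cell, was measured at 228, 235 and 248 CPM, from 2446, 2699 and 2180 counts. SLC40A1 (ENSG00000138449.11, chr2:189560579-189583758), or ferroportin, the iron exporter, was measured at 17.3, 18.9 and 20.4 CPM, from 186, 217 and 179 counts. Both were lowest in replicate 1 and highest in replicate 3, and their ranges lay far apart. Per length, TFRC exceeded SLC40A1 by 8.86-fold, 8.38-fold and 8.20-fold in replicates 1, 2 and 3, a mean of 8.48 ± 0.339. The mean ratio was 16.01 with the median transcript length and 6.91 with summed exons, and TFRC was above SLC40A1 with each.

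Ordered by CPM per kb of the longest transcript, FTL came first with 821 ± 30.9 (SD, n = 3), followed by FTH1 with 176 ± 19.4. BLVRA with 60.1 ± 5.62, TFRC with 46.4 ± 1.99, FECH with 19.5 and HMOX2 with 18.4 ± 1.08 came next. The lowest were BLVRB with 11.4 ± 0.525, SLC48A1 with 5.98 ± 0.313, SLC40A1 with 5.48 ± 0.442 and HMOX1 with 3.04 ± 0.682 CPM per kb. Neighbours in this order had ranges that did not overlap, apart from FECH and HMOX2 and apart from SLC48A1 and SLC40A1, which each changed places in 1 of the 3 libraries. The median of the 10 genes was 18.9 ± 0.343 CPM per kb, beside 8.34 ± 0.133 over the 13863 detected genes with a length. Of the 10 genes, 7 lay above the median of all these genes. FTL stood at the 99.7th percentile of them, FTH1 at the 98.5th and HMOX1 at the 26.0th.

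FTL was first and HMOX1 last under each of 3 definitions of length, but the places between them depended on it. TFRC is annotated with many short fragments, so its median transcript of 560 bases is far shorter than its longest of 5111 bases. With the median length TFRC had 423 CPM per kb and passed FTH1 (274), and FECH with 124 passed BLVRA with 92.2. With summed exons TFRC had 30.1 CPM per kb, and the first 7 places kept their order.

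**Figure D2:**
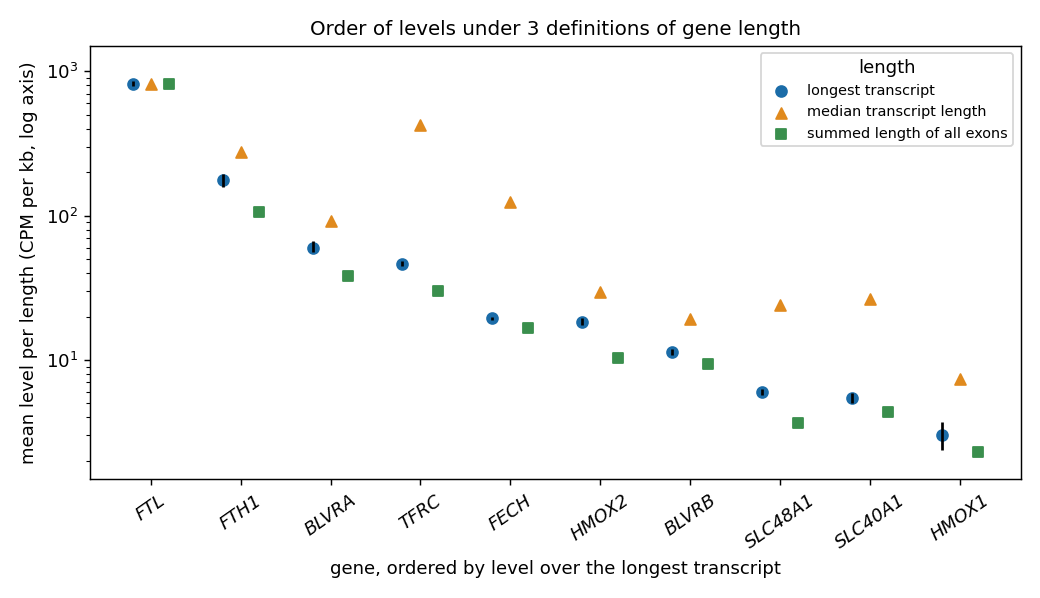
Mean level per length (CPM per kb, log axis) of each gene over the 3 control libraries, with the longest transcript, the median transcript length or the summed exons as length. Black lines span the 3 libraries for the longest transcript; FTL at 821 CPM per kb and HMOX1 at 3.04 keep the first and last place, while TFRC moves between 30.1 and 423.

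Whether the libraries differed by more than counting was read from a variation index, the chi-square statistic of the 3 counts of a gene given the scaled library totals, divided by its 2 degrees of freedom. Counting alone gives values near 1, with 5% above 2.996. At a given relative spread beyond counting, the index grows with the counts of the gene. The index was above 2.996 for 4 of the 10 genes, beside 36.4% of the 13920 detected genes, so the share was near the background. Over the 10313 genes averaging 100 or more counts, which include all of the 10 but HMOX1, the share above was 45.4%. Without replicate 3 the count was 3 of the 10, beside 15.2% of the detected genes, by the 95% point for 2 libraries. With all 3 libraries the 4 genes above it were FTH1 with 26.3, FTL with 10.3, BLVRA with 6.42 and TFRC with 4.19. These are also the 4 genes with the highest levels per length of the longest transcript. With the median transcript length FECH, whose index was 0.676, stood above BLVRA in level. HMOX1 reached 2.75, so its 1.57-fold range did not pass. The other 5 lay at or under 1.33, the value of HMOX2, and the lowest was BLVRB with 0.322. The median coefficient of variation of the 10 genes was 5.55%, beside 8.62% over all detected genes, and ranged from 2.89% for FECH to 22.4% for HMOX1. FTL was above 2.996 although its coefficient of variation, 3.76%, lay under the median of all detected genes.

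**Figure D3:**
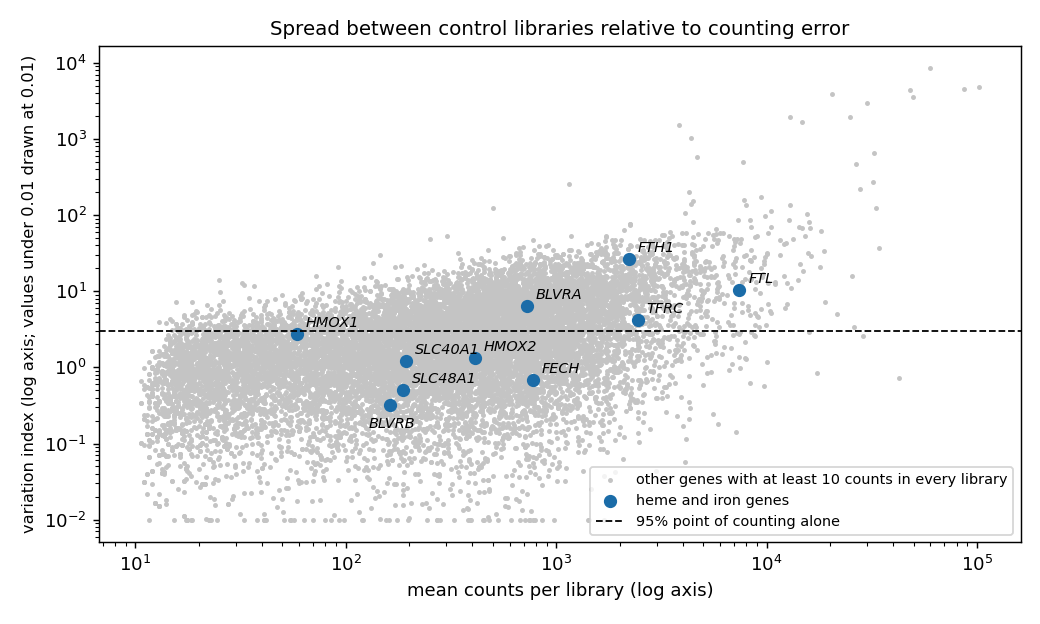
Variation index (log axis) against mean counts per library (log axis) for the 10 genes and for all other detected genes; the dashed line is the 95% point of counting alone, 2.996. FTH1, FTL, BLVRA and TFRC lie above the line and HMOX1, at 2.75, just under it.

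Single libraries decided some of these calls. The count was 4 of the 10 without replicate 1, beside 28.2% of the detected genes, and 3 without replicate 2, beside 37.2%. With 2 libraries the 95% point is 3.84, and FTH1 and FTL stayed above it whichever library was left out. BLVRA fell to 0.382 without replicate 2. TFRC fell to 1.44 without replicate 3 and to 3.19 without replicate 1. HMOX1 rose to 5.36 without replicate 1, which leaves its highest and lowest libraries.

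The departure of replicate 3 was set beside GC content, along which it ran over the 13863 detected genes with a length (Spearman's rho -0.60 across genes, which are not independent, and 0.016 with the GC trend of each library removed). TFRC (41.5% GC) was higher in replicate 3 than the mean of the others by 0.10 on the log2 scale, and SLC40A1 (42.4% GC) by 0.17. With the trend removed, these differences were -0.04 and 0.06, and the index of TFRC went from 4.19 to 0.653. HMOX2 (56.7% GC) went from -0.12 to 0.02, and its coefficient of variation from 5.86% to 2.02%.

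Ferritin did not move that way. FTL has 56.3% GC, yet was higher in replicate 3 by 0.08 on the log2 scale, and by 0.21 with the trend removed, and its index went from 10.3 to 50.1. FTH1 (50.1% GC) was higher by 0.24 before and 0.26 after, and its index was 27.5 after. BLVRB (58.2% GC) was higher by 0.11 before and 0.26 after, with an index of 1.77. HMOX1 (58.1% GC) had a difference of -0.50 before and -0.36 after. With the trend removed 3 of the 10 genes (FTL, FTH1 and BLVRA) had an index above 2.996, beside 20.8% of all genes tested. The part of the larger mitochondrial share of replicate 3 in these differences was not tested.

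**Figure D4:**
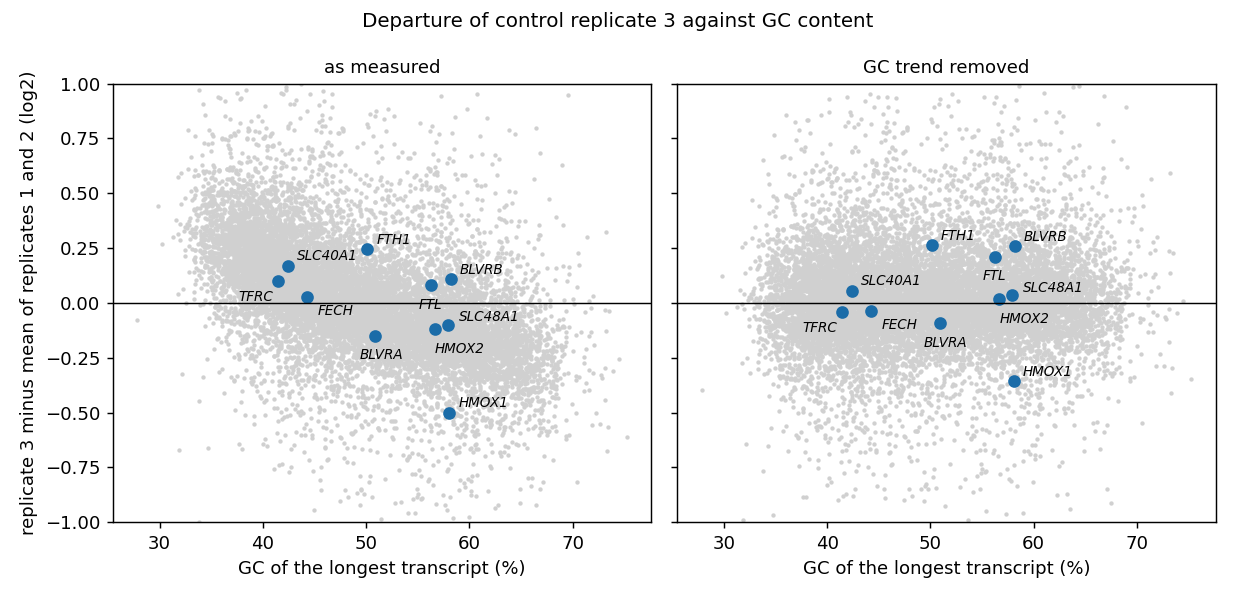
Difference of replicate 3 from the mean of replicates 1 and 2 (log2) against the GC content of the longest transcript, as measured (left) and with the GC trend removed (right); grey points are other detected genes, within 1 log2 unit. The grey cloud slopes down on the left and is level on the right; SLC40A1, TFRC and HMOX2 move toward 0, while FTL and BLVRB move from 0.08 and 0.11 to 0.21 and 0.26.

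The surrounding pathway was described with 9 lists of 48 other genes, of which 39 were detected and 3 had 0 counts throughout. Levels and ratios per length of these genes use the longest transcript alone, and their SDs cover the libraries only. Among the 39, the variation index was above 2.996 for 15, again near the background of 36.4%. With the GC trend removed it was above for 9 of them, beside 20.8% of all genes tested.

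All 3 genes of iron sensing were detected. IREB2 and ACO1 encode the iron regulatory proteins that bind the hairpins above, and FBXL5 encodes the ubiquitin ligase subunit that removes IREB2 when iron is plentiful. IREB2 was measured at 133, 144 and 159 CPM, ACO1 at 50.0, 53.9 and 63.7 CPM, and FBXL5 at 34.2, 38.8 and 46.1 CPM in replicates 1, 2 and 3. All 3 were highest in replicate 3 and had an index above 2.996, from 8.51 to 11.5. With the GC trend removed the index was 0.0480 for IREB2 and 2.42 for FBXL5, and 6.67 for ACO1. Per length, IREB2 exceeded ACO1 by 3.06 ± 0.113-fold.

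Of 7 genes of iron uptake and reduction, 6 were detected. SLC39A14, a zinc and iron importer, was highest with 176.5 ± 7.23 CPM (38.0 CPM per kb). SLC11A2, the endosomal iron transporter DMT1, followed with 80.6 ± 2.97 CPM, and STEAP3, an endosomal ferrireductase, with 22.1 ± 1.23 CPM. SLC39A8 (11.1 ± 1.73 CPM), STEAP2 (9.04 ± 1.28 CPM) and TFR2, the second transferrin receptor (6.89 ± 0.940 CPM), were lower. TF, which encodes transferrin itself, had 11, 12 and 3 counts.

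Export was thinly represented beyond SLC40A1. None of HEPH, CP and HAMP was detected by this rule. HEPH and CP, the oxidases that work with ferroportin, had 9, 9 and 14 counts and 0, 3 and 2 counts. HAMP, which encodes the hormone that removes ferroportin from the membrane, had 1, 1 and 0 counts.

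Among genes of ferritin loading and turnover, NCOA4, the receptor that takes ferritin to the lysosome, was measured at 162 ± 12.7 CPM. The iron chaperones PCBP2 and PCBP1 were measured at 132 ± 10.8 and 21.1 ± 2.74 CPM. FTMT, mitochondrial ferritin, had 0 counts in each library. NCOA4, PCBP2 and PCBP1 had an index above 2.996, and with the GC trend removed only PCBP2 of these did (9.05, against 2.53 for NCOA4 and 1.38 for PCBP1). PCBP1 has no introns and several close relatives, so its counts may be shared.

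For the handling of heme itself, PGRMC1, a heme-binding membrane protein, was highest of 9 genes with 69.2 ± 1.71 CPM (36.2 CPM per kb). FLVCR1, described as a heme exporter and choline transporter, had 58.6 ± 2.99 CPM, which per length was 1.66 ± 0.168-fold the level of SLC48A1. The level of SLC48A1 itself went from 5.98 to 23.96 CPM per kb with the median transcript length, which was not tried for FLVCR1. ABCB10 had 34.9 ± 1.19 CPM, ABCB6 10.7 ± 0.223, HEBP1 10.6 ± 2.29, SLC46A1 7.64 ± 1.33 and HPX 2.87 ± 1.11 CPM. FLVCR2 had 7, 12 and 4 counts, and ABCG2, a porphyrin exporter, had 0 in each.

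All 7 genes listed for mitochondrial iron and iron-sulfur cluster assembly were detected. ISCU, the scaffold on which clusters are built, was highest per length with 19.8 CPM per kb (73.1 ± 3.74 CPM). Per length of the longest transcript, LYRM4, the partner of the desulfurase NFS1, was lowest with 4.09 CPM per kb. It had 320, 324 and 279 counts, and by CPM HSCB was the lowest of the list. The mitochondrial iron importers SLC25A37 and SLC25A28 had 66.7 ± 1.29 and 26.0 ± 1.40 CPM. NFS1, which supplies sulfur, had 27.0 ± 1.70 CPM, LYRM4 29.9 ± 1.73 and the glutaredoxin GLRX5 33.97 ± 0.414 CPM. HSCB (5.88 ± 1.41 CPM), a cochaperone of cluster transfer, was the single member of the list with an index above 2.996 (3.65).

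The transcription regulators of HMOX1 were all present. Per length, the activator NFE2L2 exceeded the repressor BACH1 by 4.22 ± 0.627-fold (3.81, 3.92 and 4.94 in replicates 1, 2 and 3). KEAP1, which holds NFE2L2 protein low, had 134 ± 11.7 CPM, and NFE2L2 had 99.2 ± 17.7 CPM. With the GC trend removed the index of KEAP1 went from 9.71 to 1.64 and that of MAFG from 9.26 to 0.867. BACH1 was measured at 45.7, 47.6 and 48.8 CPM, with an index of 0.498. Among the small MAF proteins, partners of both, MAFG had 217 ± 14.7 CPM, MAFK 12.6 ± 2.32 and MAFF 10.4 ± 1.55 CPM. NFE2L2 was highest in replicate 3, with an index of 30.2 (25.1 with the GC trend removed), where HMOX1 was lowest.

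**Figure D5:**
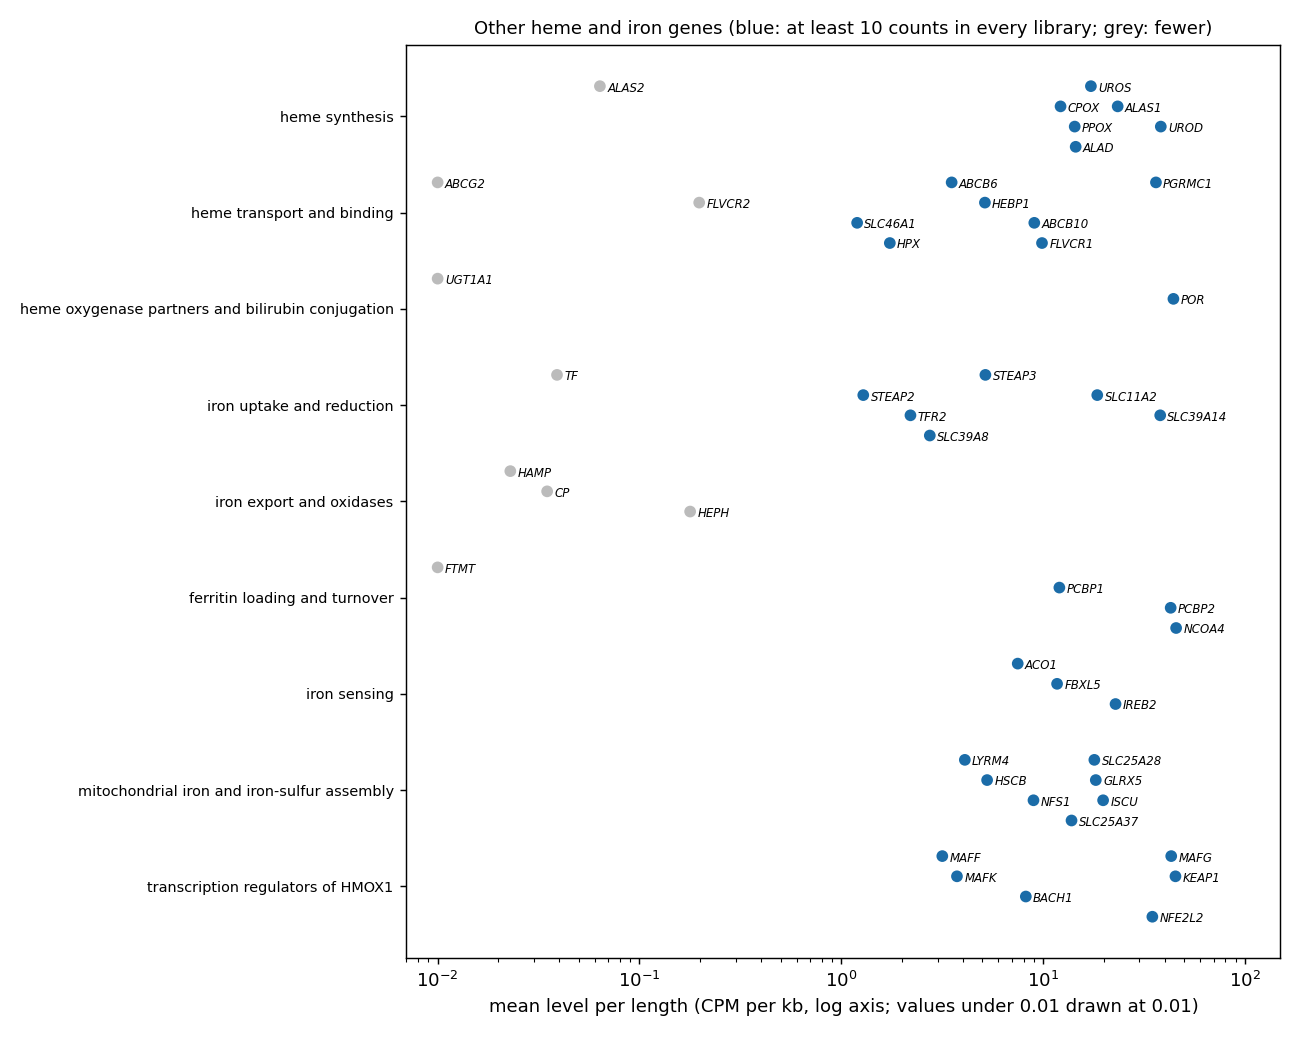
Mean level per length (CPM per kb, log axis) of 48 other genes of heme and iron metabolism in 9 lists; blue genes were detected (10 or more counts in each library) and grey genes were not. The 3 genes of iron export and oxidases are all grey, while all 7 mitochondrial genes are blue, from LYRM4 at 4.09 to ISCU at 19.8 CPM per kb.

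The core of the antioxidant response element, the site of NRF2 with small MAF proteins, was looked for in promoter windows from RefSeq (GRCh38.p14; 250 bases before to 50 after the start). Windows were found for 8 of the 10 genes, 9 windows in all, with no entry for HMOX1 and FTH1. The letters TGACNNNGC, on either strand, were in 1 of the 9 windows, that of FECH, beside 13.3% of all 35116 windows. For HMOX2, BLVRA, BLVRB, FTL, TFRC, SLC40A1 and SLC48A1 this says only that these letters are not in the windows searched.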

How the data were processed

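The authors deposited raw counts per Ensembl gene, as whole numbers with no normalization per the file headers and values. The submitters' processing notes name GRCh38, fastp 0.21.1, STAR 2.7.7a and featureCounts. The annotation release, the strand setting and the treatment of reads matching several genes are not given in the sources used here. Columns were matched to samples by the numbers in the labels. The 3 count columns that match no label were not used, and no comparison between groups was made.

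One gene without values was left out, and 60480 of 60709 identifiers matched a symbol. CPM used TMM factors (edgeR 4.0.16, R 4.3.3), computed on detected genes (10 or more counts in each library). Lengths, GC content, coordinates and hairpins came from GENCODE 29, which may differ from the authors' annotation. The GC trend was the median deviation in 50 GC bins per library, over 10290 detected nuclear genes averaging 100 or more counts. Of the detected genes, 99.6% had a GC value. Other steps used Python 3.11.15, pandas 2.3.3 and scipy 1.17.1. On simulated counts of 13920 genes the variation index called 4.75% of unchanged genes, 95% of genes changed 2-fold and 86% of those changed 1.5-fold in 1 library. With a linear GC trend of a chosen slope put into 1 library, and counting error alone besides, it called 32.4% of these genes. After the trend was removed it called 4.84%, whereas in the data 20.8% of detected genes were above after removal. The genes, lists and markers were chosen with earlier results of these data known. The rule was to name all 10 genes, and the members of lists under 10 genes. Some genes of these lists are not reported here. Alternatives were other scaling, GC removal, other lengths, added pseudogene counts and each library left out.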

Additional observations from a re-analysis of the deposited data

How the results depend on the processing

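Several values moved by more than their SD between libraries. With the median transcript length, the ratio per kb of HMOX2 to HMOX1 went from 6.23 to 4.17 and that of FTL to FTH1 from 4.70 to 3.01. With summed exons, a setting added after the data were seen, these were 4.65 and 7.77, and the ratio of BLVRA to BLVRB went from 5.31 to 4.11. The ratio of TFRC to SLC40A1, whose settings were all added after the data were seen, went from 8.48 to 16.01 with the median transcript length and to 6.91 with summed exons. With mitochondrial genes left out of the total, the ferritin share of counts went from 0.0937% to 0.0984%, and 4 of the 10 levels moved (BLVRB, FTL, TFRC and FECH), since a smaller total raises every level. Both other lengths moved 9 of 10 levels per length, all but FTL. RLE factors, library size alone and GC removal moved none of the 10 mean levels, but could hardly have done so. The GC trend was taken as a deviation from each gene's own mean. The TMM and RLE factors of the full totals lay between 0.989 and 1.006. These settings thus do not bear on how stable the levels are. Leaving out 1 replicate gave 5.68 to 6.90 for HMOX2 to HMOX1, 5.00 to 5.62 for BLVRA to BLVRB, 4.54 to 4.88 for FTL to FTH1 and 8.29 to 8.62 for TFRC to SLC40A1. It gave a ferritin share of 0.0916 to 0.0959%, and 3 to 4 genes above the 95% point of the variation index. The share of all detected genes above it was 28.2%, 37.2% and 15.2% without replicate 1, 2 and 3. A mean of 3 libraries cannot move by its SD when 1 is left out, so such settings do not bear on how stable the levels are. The median level of the 10 genes did not depend on the count minimum, since all passed it. No paired analysis was possible because the 3 libraries belong to 1 group. For the same reason the test of peptide treatment and its alternatives (replicate block, DESeq2, RLE factors, no filter, left-out replicates) were not run. Depth limits HMOX1 most, at 38 to 78 counts per library.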
